A study of Sus scrofa with 17 samples.

Results

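The 8 genes described here cut peptides for major histocompatibility complex (MHC) class I molecules, carry and load them, or switch the class I genes on. They are B2M, TAP1, TAP2, TAPBP, PSMB8, PSMB9, PSMB10 and NLRC5. They were taken by symbol from a table of 35670 genes, where each symbol stood on 1 row, and all 8 were among the 15884 genes with enough counts to be tested. RNA was sequenced from right ventricular myocardium of 17 pigs (Sus scrofa), 1 library per animal, in a model of pressure overload of that ventricle. Umbilical cord blood mononuclear cells (UCB-MNC), a mixed fraction of lymphocytes, monocytes and progenitor cells, had been given in several doses to 7 animals (multidose) and in a single dose to 5, and 5 animals had received vehicle (vehicle control). The series title names administration into the myocardium, and the species of the cord blood donors is not given in the sources used here. The study asked how the dosing regimen changed gene expression in the ventricle. All 3 groups, the vehicle controls included, carried the pressure overload, so no group shows the unloaded ventricle. The number and size of the doses, the harvest time, age and sex are not given per library in the sources used here.

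Class I molecules show short peptides from inside a cell to cytotoxic T cells. Proteasomes cut the peptides, the transporter associated with antigen processing brings them into the endoplasmic reticulum, and a loading complex holds the empty class I molecule until a peptide fits. Interferons raise these genes in most cell types, and cardiomyocytes of the healthy heart are known to carry little class I.

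The positions below are those of RefSeq on the pig build Sscrofa11.1, the build named in the submitters' processing notes. TAP1 (ENSSSCG00000025618) and TAP2 (ENSSSCG00000025593) encode the chains of the peptide transporter, and PSMB8 (ENSSSCG00000026951) and PSMB9 (ENSSSCG00000001463) encode catalytic subunits of the immunoproteasome, the form of the proteasome that interferon induces. These 4 genes are neighbours on chromosome 7, in the order TAP2 (25045085 to 25056915), PSMB8 (25058456 to 25061666), TAP1 (25062772 to 25071989) and PSMB9 (25072133 to 25077508), a stretch of 32424 bases in which only 143 bases separate TAP1 from PSMB9. TAPBP (ENSSSCG00000001507), which encodes tapasin, the bridge between the transporter and the empty class I molecule, is on the same chromosome at 29663491 to 29673453. PSMB10 (ENSSSCG00000031781), a further catalytic subunit of the immunoproteasome, and NLRC5 (ENSSSCG00000039751), the transactivator of class I genes, are on chromosome 6, at 28544910 to 28547609 and at 18933179 to 19036288. B2M (ENSSSCG00000051899), the invariant light chain of class I molecules, stood on 1 row of the table. RefSeq lists 2 genes of that symbol on chromosome 1, at 126837721 to 126844043 and at 126865767 to 126878501, so reads of near-identical copies may have been split or dropped in counting and the level of B2M is uncertain. The class I heavy chains SLA-1, SLA-2, SLA-3, SLA-6, SLA-7 and SLA-8 were not analysed here.

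Libraries held 21754800 to 61144663 counts. Cardiomyocyte markers (MYH7, TNNT2, ACTN2, MYL2 and MYL3) summed to 35250 to 63190 CPM (counts scaled to library size) in every library, which fits the labelled tissue, and leukocyte PTPRC lay between 13.8 and 35.1 CPM. The labels give each library a name beginning with M1 (multidose 1 to 4 and single dose 1) or with M8 or M9 (the other 12, all 5 vehicle controls among them), without saying what it stands for. The M1 libraries were shallower in part, at 21754800 to 40969168 counts against 40621934 to 61144663. Dosing and library name cannot be fully told apart, since no vehicle control had an M1 name. A pair of libraries stood apart in the class I genes. Multidose 5 was the highest of the 17 libraries for all 8 genes, while it was the highest for 12.7% of all genes tested. Vehicle control 1 was in place 2 for 7 of the 8 and in place 3 for TAPBP, and was in place 2 for 7.59% and the highest for 7.25% of all genes. Results that rest on multidose 5 are therefore given with and without it. In bulk tissue, fewer cells of a type and less RNA per cell cannot be told apart.

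The level of B2M in CPM, scaled to library size by the trimmed mean of M values (TMM), spread widely within each group. It was 260.0, 166, 139, 126 and 101 CPM in single dose 1 to 5, and 303, 136, 144, 220.1 and 247 CPM in vehicle control 1 to 5. In the multidose group it ranged from 116 CPM (multidose 7) over a median of 212 to 687 CPM (multidose 5). The groups overlapped, and multidose 5 alone lay clear of the rest. Without multidose 5 the multidose libraries had 189.8 ± 56.3 CPM (SD, n = 6), the single dose libraries 158 ± 61.4 (SD, n = 5) and the vehicle controls 210.3 ± 70.8 (SD, n = 5).

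In both transporter chains multidose 5 again lay clear of the rest, and the wider fold range of TAP1 rested on that library alone. TAP1 stood at 44.4, 44.3, 39.8, 33.3 and 36.9 CPM in single dose 1 to 5 and at 69.6, 40.5, 53.5, 41.7 and 46.3 CPM in vehicle control 1 to 5. In the multidose group its lowest level was 26.2, its median 34.1 and its highest 243 CPM, the last in multidose 5. The 6 other multidose libraries (26.2 to 42.8 CPM) overlapped the vehicle controls (40.5 to 69.6 CPM) through multidose 7 alone. TAP2 ran from 18.3 to 30.2 CPM in those 6 libraries, from 20.9 to 27.5 in the single dose group and from 17.4 to 48.2 in the vehicle controls, and it reached 76.0 CPM in multidose 5. With multidose 5 set aside, TAP2 ranged most widely in the vehicle controls, whose lowest library, vehicle control 2, lay below every other library and whose highest, vehicle control 1, lay below only multidose 5.

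TAPBP was the only one of the 8 genes whose levels kept a dosed group and the vehicle controls apart. It was 37.4, 45.3, 45.4, 44.7 and 45.5 CPM in single dose 1 to 5, and 63.0, 46.0, 71.8, 49.7 and 49.3 CPM in vehicle control 1 to 5. The 2 groups did not overlap, and for 0.453% of all genes tested the single dose libraries lay below the vehicle controls in this way. In the multidose group the lowest level was 30.0, the median 38.9 and the highest 145 CPM. The lowest 4 were the M1 libraries, and multidose 5 was again the highest.

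The 3 immunoproteasome subunits overlapped between all groups. PSMB8 was 21.3 to 33.0 CPM in the multidose libraries other than multidose 5, 25.9 to 33.8 in the single dose libraries and 22.4 to 46.2 in the vehicle controls, against 122 CPM in multidose 5. PSMB9, with 183 to 1798 counts per library, was 7.48 to 12.1, 9.01 to 14.7 and 8.38 to 18.0 CPM in the same 3 sets and 49.3 CPM in multidose 5. PSMB10 was 19.5 to 22.1, 18.3 to 27.7 and 15.2 to 29.8 CPM in those sets and 76.2 CPM in multidose 5. In the multidose group the 6 libraries other than multidose 5 held PSMB10 within a narrow band, 21.3 ± 0.967 CPM (SD, n = 6), whereas the vehicle controls spread over 20.7 ± 5.71 CPM (SD, n = 5).

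NLRC5, the switch of the class I genes, also overlapped between the groups. It was 25.03, 24.9, 21.9, 16.6 and 17.5 CPM in single dose 1 to 5 and 34.7, 19.98, 31.4, 16.6 and 25.9 CPM in vehicle control 1 to 5. In the multidose group the lowest level was 15.4, the median 17.9 and the highest 51.0 CPM. All 3 groups overlapped, and multidose 5 was the highest library here too. CPM values are not scaled to gene length, so levels are compared between libraries and not between genes.

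**Figure D1:**
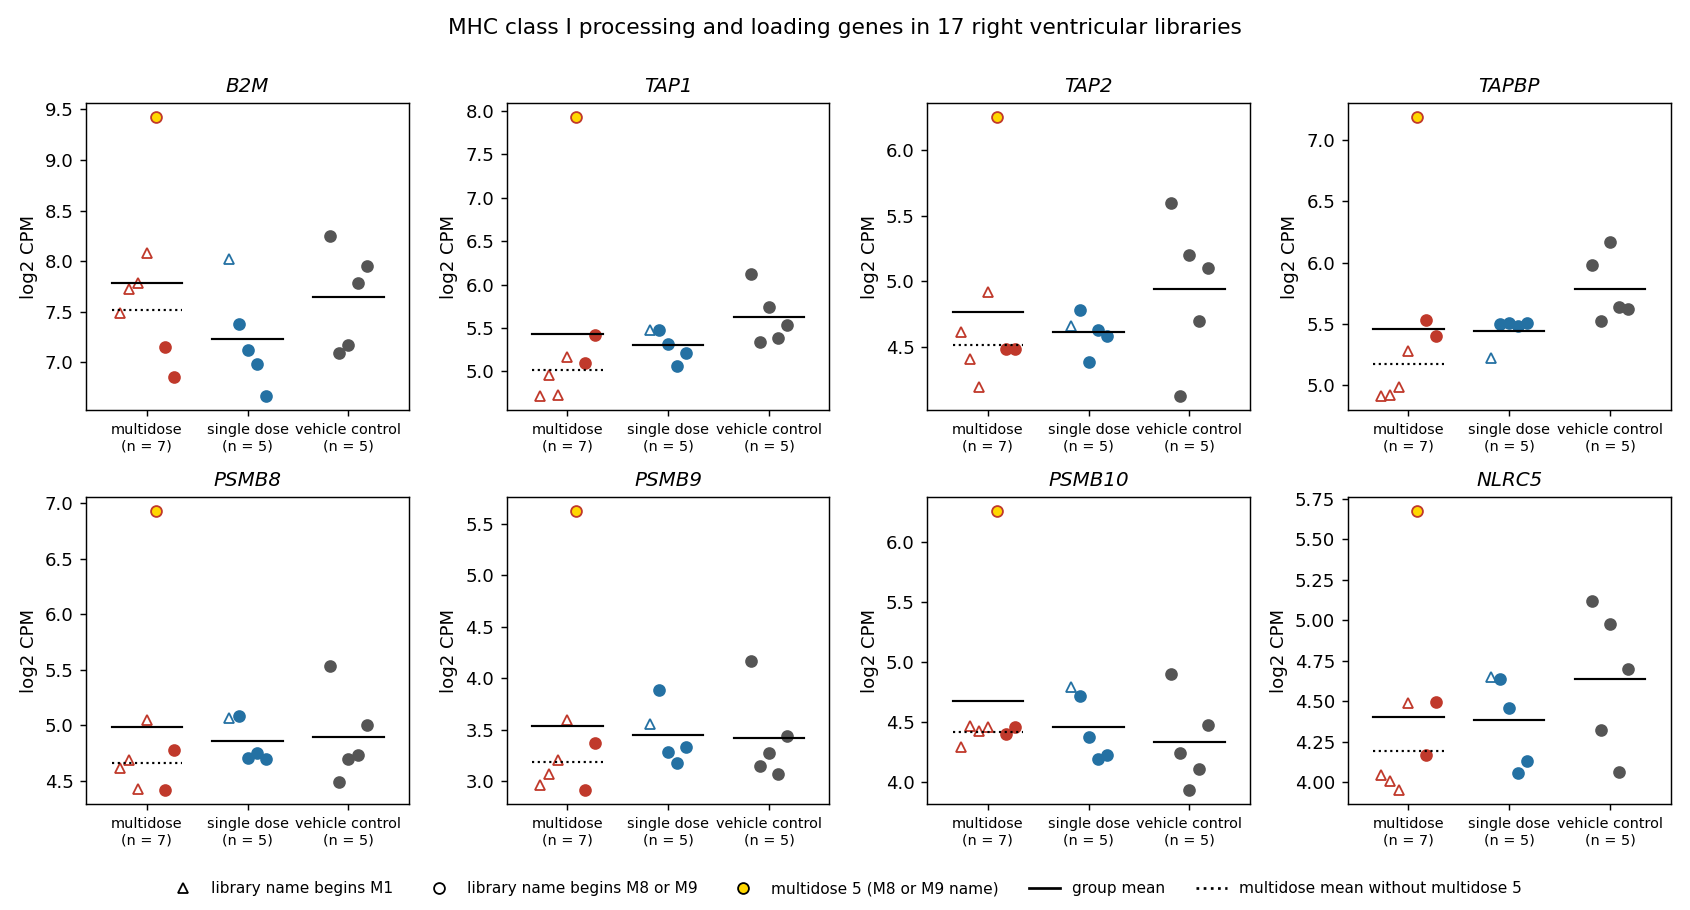
Level of each gene in log2 CPM (y axis) in the 17 libraries by group (x axis), 1 point per animal; triangles are M1 libraries, solid lines group means, and the dotted line is the multidose mean without multidose 5. Multidose 5 (yellow) is the highest library in all 8 panels, and its removal brings the multidose mean for TAP1 below both other groups.

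In multidose 5 the class I genes were high together with interferon-induced genes, while the general leukocyte marker PTPRC was not. Against the median of the other 16 libraries, TAP1 was 6.05-fold higher, PSMB9 5.07-fold, PSMB8 4.63-fold, B2M 3.98-fold, PSMB10 3.58-fold, TAPBP 3.21-fold, TAP2 3.08-fold and NLRC5 2.44-fold. By this difference they ranked between place 59 (TAP1) and place 359 (NLRC5) of the 15884 genes. This is 1 animal, so the values describe it and carry no test.

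Partners of the 8 genes were also high in multidose 5, but unequally. Among the loading chaperones and peptide-trimming enzymes, 5 of 6 were the highest there, with log2 differences of 1.18 for TAPBPL (a tapasin relative that edits peptides), 1.0 for ERAP1 and 0.92 for ERAP2 (aminopeptidases that trim peptides), 0.61 for CALR and 0.60 for CANX (chaperones of the heavy chain). PDIA3, the remaining chaperone of the list, differed by 0.18. Of the proteasome genes, PSME2 and PSME1, the subunits of the interferon-induced activator, were higher by 1.54 and 1.01, while PSMB7, which PSMB10 replaces, differed by -0.03 and PSME3 by -0.31. Of 11 core subunits shared by both proteasome forms, 7 were the highest there (median 0.43), with PSMA2 and PSMA6 at 1.10 and 1.09. Of the 4 other heavy chains that pair with B2M, FCGRT (the neonatal Fc receptor, 0.28) was highest in multidose 5, MR1 (0.67), which presents vitamin B metabolites, was in place 3 of 17, CD1D (-0.17), which presents lipids, was place 12 of 17 and HFE (-0.73) was the lowest.

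Upstream of class I, IRF1, an interferon-induced transcription factor, was 2.08-fold higher in multidose 5. IFNG itself was the highest of 17 libraries there, 2.97-fold over the median of the others, on few reads (22 counts, 0.603 CPM, against 0 to 26 counts and at most 0.491 CPM elsewhere), and the receptor chains IFNGR1 and IFNGR2 differed by 0.03 and -0.31 log2 units. The interferon gamma induced genes had a median log2 difference of 1.42, from 0.30 for GBP5 to 4.61 for the chemokine CXCL10. Of these 10 genes, 6 were the highest of 17 libraries there. CXCL9 and IDO1 were not, at 23.2 and 1.53 CPM, against 67.0 and 6.21 CPM in vehicle control 1. A list of type I interferon response genes, chosen after the values were seen, had its highest library in multidose 5 for 11 of 11 genes, with a median of 3.71 and values from 1.504 (STAT2) to 6.12 (ISG15). Because the list was chosen with these values known, the count describes multidose 5 and is not a test.

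Cell type markers stood at different places in multidose 5. PTPRC was 14.8 CPM, place 14 of 17. The 7 T cell markers measured summed to 36.8 CPM, place 2 of 17, with CD2 and CD4 higher by 1.54 and 1.39 log2 units and CD3D and CD3E at -0.09 and -0.17. Macrophage markers summed to 425.8 CPM, place 3, with C1QA and C1QB (subunits of complement) highest of 17 at 0.80 and 0.96. The median over the 7 macrophage markers was 0.20, and MRC1 was the lowest of them at -0.35. Cytotoxic and natural killer cell markers summed to 21.5 CPM, place 3, with the granzymes GZMB and GZMA in place 2 at 1.90 and 1.26. The median over these 6 markers was 0.46, and NCR1 was the lowest of them at -0.42. Endothelial markers summed to 692 CPM and smooth muscle and pericyte markers to 309 CPM, both the lowest of the 17 libraries, and cardiomyocyte markers to 63190 CPM, the highest. All markers named in this paragraph had counts in every library, and their part in the class I levels was not tested.

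In vehicle control 1, the library with the next highest class I levels, the marker sums also stood apart. Its class I genes were higher than the median of the other 16 libraries by 0.47 (TAPBP) to 0.97 (TAP2) log2 units, with a median of 0.80. There PTPRC was the highest of the 17 libraries at 35.1 CPM, as were 4 of 7 T cell markers and 5 of 6 cytotoxic and natural killer cell markers, with CD8A higher by 1.88 and GZMB by 1.99 log2 units. Endothelial markers summed to 1326 CPM, the highest of 17, macrophage markers to 470.0 CPM, place 2, and cardiomyocyte markers to 35248 CPM, the lowest. The part of these cells in the class I levels was not tested. The interferon gamma induced genes had a median difference of 1.27, from 0.39 to 3.75 (IDO1), with CXCL9 at 2.14. For the 11 type I interferon response genes, vehicle control 1 stood in place 2 (IRF7) to place 4 (IFI6, USP18 and STAT2) of 17. Their median difference in vehicle control 1 was 0.70. Multidose 5 was the highest for each of them, but they were chosen after their values were seen. High interferon-induced genes were not limited to these libraries. In vehicle control 4 CXCL10 was in place 2 at 227 CPM, against 65.8 CPM in vehicle control 1, whereas GBP2 was the lowest of 17 at 8.94 CPM. The class I genes of vehicle control 4 had a median difference of 0.03.

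**Figure D2:**
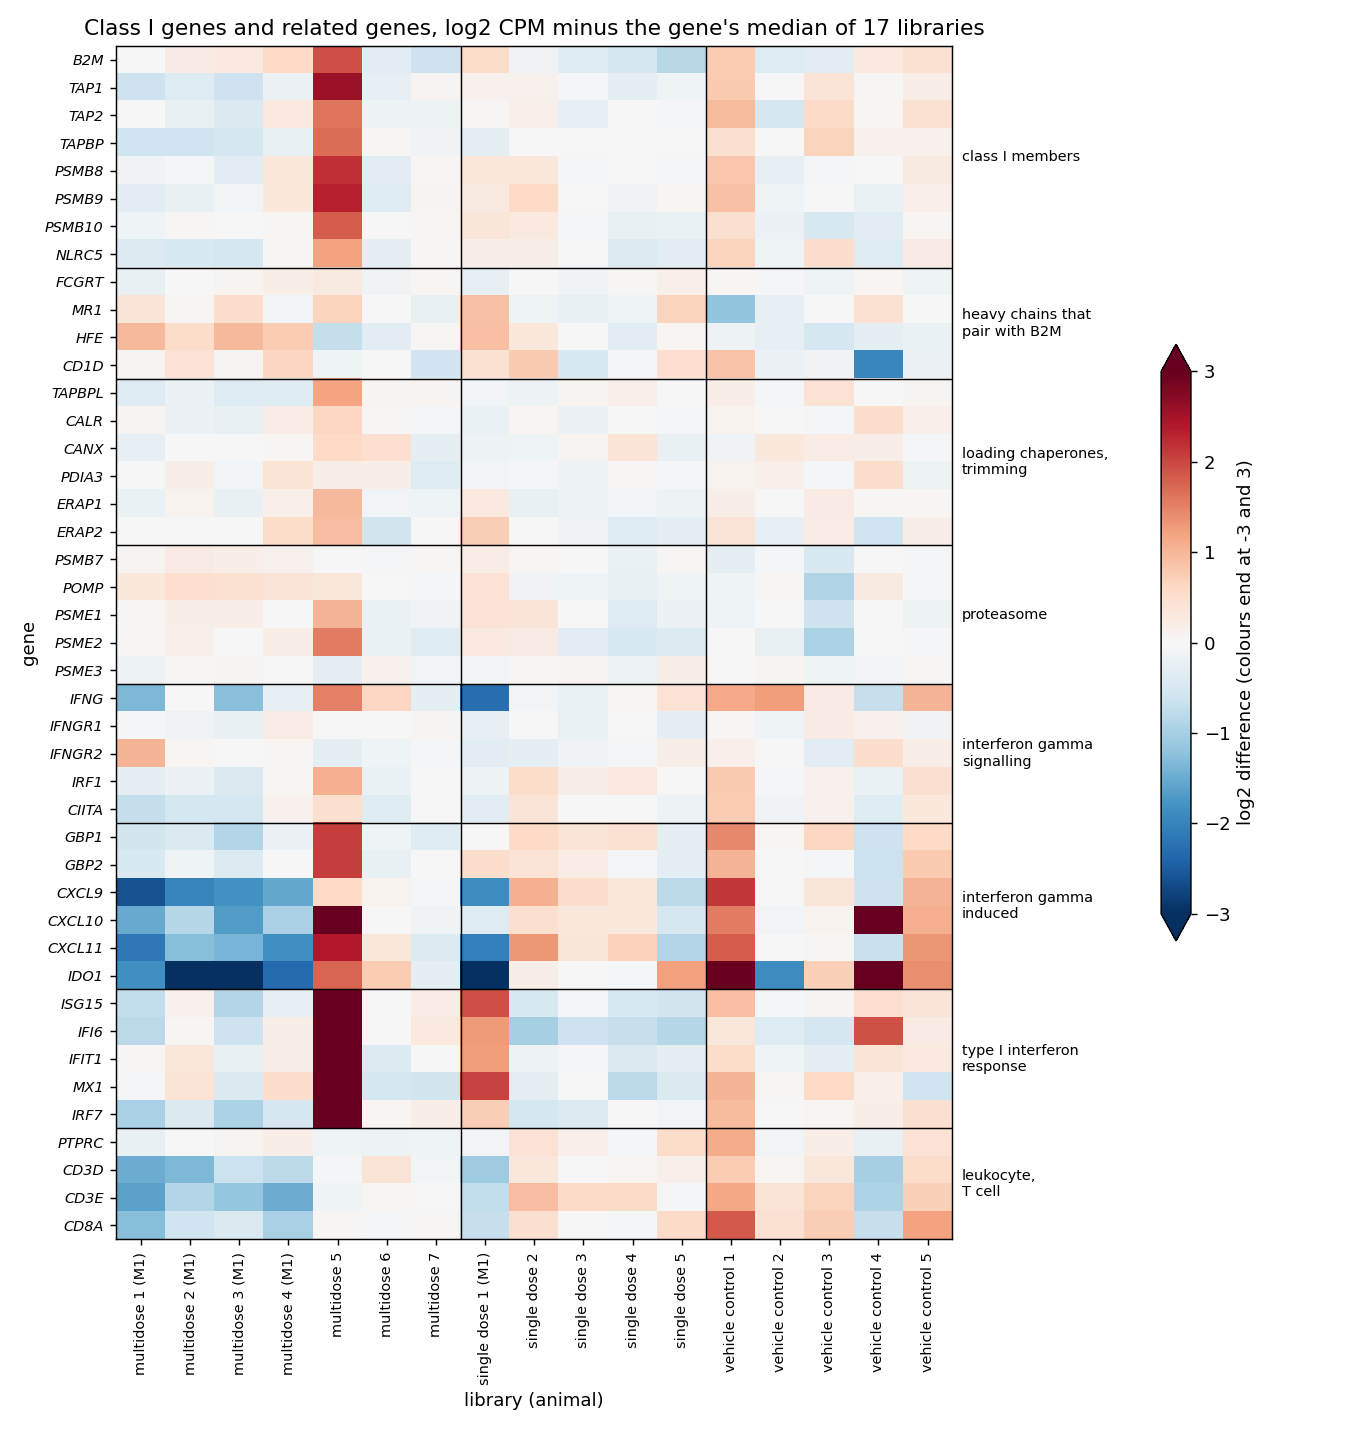
Log2 CPM minus the gene's median over 17 libraries (colour, ending at -3 and 3) for the 8 class I genes and related genes (rows) in each library (columns), ordered by group with M1 libraries first. Multidose 5 lies far above the median for the class I genes, CXCL10 and the type I interferon genes, and vehicle control 1 for CXCL9, IDO1 and CD8A.

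Dosing made no difference to the 8 genes that passed the test. In multidose against vehicle control, edgeR's quasi-likelihood test with Benjamini-Hochberg adjustment called 0 of 15884 genes (0%) and 0 of the 8, with 1997 genes and 0 of the 8 at an unadjusted p under 0.05. DESeq2 called 8 genes and limma-voom 0, none of them among the 8. The estimates were positive for 5 genes, at 0.31 ± 0.38 for B2M (log2 fold change ± SE, 7 against 5 libraries), 0.32 ± 0.49 for TAP1, 0.36 ± 0.38 for PSMB8, 0.43 ± 0.42 for PSMB9 and 0.50 ± 0.31 for PSMB10. They were negative for TAP2 (-0.08 ± 0.31), TAPBP (-0.10 ± 0.33) and NLRC5 (-0.15 ± 0.27). The median over the 8 was 0.32, and over all genes tested -0.01.

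The sign rested on multidose 5 for B2M, TAP1, PSMB8 and PSMB9. Without it, 7 of the 8 estimates were negative, with a median of -0.37. TAP1 was then at -0.61 ± 0.15 and TAPBP at -0.61 ± 0.14 (log2, 6 against 5 libraries), with adjusted p = 0.253 for each in edgeR's quasi-likelihood test. In the same fit 4 of the 8 genes, and 2581 of all genes, had an unadjusted p under 0.05. Among M8 and M9 libraries alone (3 multidose against 5 vehicle control) all 8 were positive with multidose 5, from 0.23 for NLRC5 to 1.06 for TAP1. Without it 7 of 8 were negative there, with a median of -0.35. No gene was called in any of these fits.

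In single dose against vehicle control 7 of 8 estimates were negative. edgeR again called 0 of 15884 genes (0%), with 836 genes and 0 of the 8 at an unadjusted p under 0.05, DESeq2 called 10 genes and limma-voom 0, none of them among the 8. The estimates farthest from 0 were those of B2M (-0.41 ± 0.40), TAP2 (-0.41 ± 0.34), TAPBP (-0.36 ± 0.35) and TAP1 (-0.34 ± 0.52, log2 fold change ± SE, 5 against 5 libraries). The immunoproteasome genes lay near 0, with PSMB8 at -0.07 ± 0.41, PSMB9 at -0.01 ± 0.45 and PSMB10 at 0.11 ± 0.33. NLRC5 was at -0.28 ± 0.29. Among M8 and M9 libraries alone, 4 against 5, TAPBP was at -0.31 ± 0.30 and B2M at -0.67 ± 0.45. Multidose 5 is in neither group, but it widened the shared spread, and without it TAP1 was at -0.34 ± 0.16 and TAPBP at -0.36 ± 0.15, with adjusted p = 0.788 and 0.780 in edgeR's quasi-likelihood test.

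In multidose against single dose all 8 estimates were positive, led by B2M (0.72 ± 0.38) and TAP1 (0.66 ± 0.49), with a median of 0.41. edgeR called 0 of 15884 genes (0%), with 335 genes and 0 of the 8 at an unadjusted p under 0.05, and DESeq2 and limma-voom called 0. Without multidose 5 only B2M stayed positive (0.26 ± 0.27, log2, 6 against 5 libraries), the other 7 lay between -0.28 (TAP1) and -0.06 (PSMB10), and the median was -0.19. The 3 comparisons share groups of libraries and are not independent of each other.

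**Figure D3:**
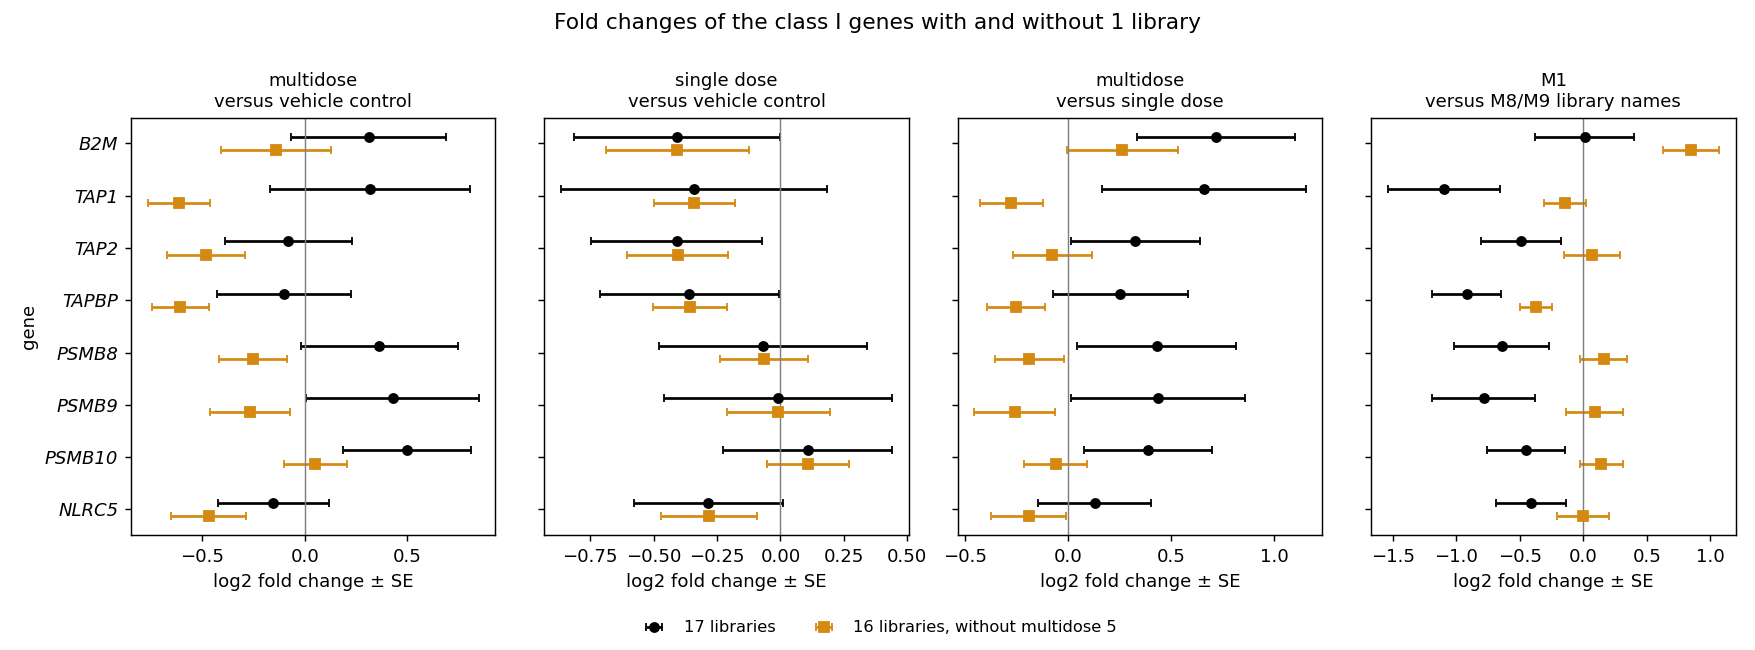
Log2 fold change with its SE (x axis) of each gene in 4 comparisons, from all 17 libraries (circles) and without multidose 5 (squares); the x axes differ between panels. Without multidose 5 the TAP1 estimate moves from 0.32 to -0.61 in multidose against vehicle control and from -1.10 to -0.15 in M1 against M8 and M9 names.

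Related genes did not pass the test in these comparisons either. Of the 4 other heavy chains that pair with B2M, the 6 loading chaperones and trimming enzymes, the 5 further proteasome genes, the 13 genes of interferon gamma signalling and class I and II transcription, and the 10 interferon gamma induced genes, none was called in any of the 3. In multidose against vehicle control the medians of these lists were 0.26, -0.02, 0.37, -0.05 and -0.26 in that order, beside -0.01 for all genes. Without multidose 5 they were 0.25, -0.12, 0.19, -0.13 and -0.75, again with no gene called. Among them HFE, an iron-regulating relative of class I, was at 0.71 ± 0.28, IDO1, a tryptophan-degrading enzyme, at -2.53 ± 0.96 (0 counts in multidose 2 and 3, so that its size depends on the prior count) and CXCL9, a T cell chemokine, at -1.50 ± 0.59. IRF1 was at -0.19 ± 0.23 and PSMB7 at 0.24 ± 0.11. T cell markers were negative for 7 of 7 genes (median -0.74, and -1.04 without multidose 5), led by CD8A at -1.33 ± 0.35 (adjusted p = 0.366, edgeR's quasi-likelihood test). The summed T cell markers were 7.67 to 36.8 CPM in the multidose group, 15 to 36.7 in the single dose group and 12.7 to 37.7 in the vehicle controls. Their part in the class I values was not tested.

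Set by library name, 1 of the 8 genes passed the test. With the dosing group in the model, edgeR called 2220 of 15884 genes between M1 and M8 or M9 libraries (14%), of which 1280 were lower in M1 (8.06% of those tested) and 940 higher (5.92%). TAPBP was the only one of the 8 called, lower in M1 by -0.92 ± 0.27 on the log2 scale (adjusted p = 0.0337, 5 against 12 libraries). It was 30.0 to 38.9 CPM in the 5 M1 libraries and 42.2 to 145 CPM in the other 12, so the ranges did not overlap, as was true for 3.01% of all genes in this direction. Within the multidose group its 4 M1 libraries also lay below the 3 others, as was true for 11.9% of all genes. TAP1 was at -1.10 ± 0.44 (adjusted p = 0.108 in edgeR's quasi-likelihood test), and B2M, at 0.009 ± 0.39, was the only estimate above 0. The median of the 8 was -0.57, and that of all genes -0.01.

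The call of TAPBP also depended on single libraries. Without multidose 5 its estimate was -0.37 ± 0.13 (adjusted p = 0.0773, edgeR's quasi-likelihood test), and its M8 and M9 libraries then ran from 42.2 to 71.8 CPM, still clear of the M1 libraries. Leaving out multidose 1, 2, 3 or 4 gave -0.94 to -0.85 and adjusted p-values of 0.0522 to 0.0743. Without the group term, and with multidose 5 left out, TAPBP was called, at -0.56 ± 0.12 (adjusted p = 0.0034, edgeR's quasi-likelihood test, 25% of all genes called). Without single dose 1 both TAPBP (-1.24) and TAP1 (-1.82, adjusted p = 0.0384, edgeR's quasi-likelihood test) were called, beside 5.33% of all genes. That fit compares the names within the multidose group only, with multidose 5 among its M8 and M9 libraries. With multidose 5 left out instead, TAP1 was at -0.15 (adjusted p = 0.611, edgeR's quasi-likelihood test). B2M rose in M1 libraries when multidose 5 was left out, by 0.85 ± 0.22 (adjusted p = 0.0272, edgeR's quasi-likelihood test, 9.13% of all genes called), and TAP2, PSMB8, PSMB9 and PSMB10 then had estimates of 0.07, 0.16, 0.09 and 0.14. Without the group term the estimate of B2M was 0.45 ± 0.21 (adjusted p = 0.128, edgeR). B2M was 179 to 271 CPM in M1 libraries and 101 to 303 CPM in the 11 others, so its ranges overlapped.

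Part of the interferon gamma induced genes and of the T cell markers were also called lower in M1 libraries, where 8.06% of all genes were lower and 5.92% higher. Of the interferon gamma induced genes 4 of 10 fell and none rose, namely CXCL9 (-2.23 ± 0.46), CXCL11 (-3.12 ± 0.68), IDO1 (-4.69 ± 1.16, 0 counts in 3 of the M1 libraries, so that its size depends on the prior count) and WARS1 (-0.44 ± 0.11). TAPBPL fell by 0.61 ± 0.19 on the log2 scale, HFE rose by 1.05 ± 0.17, and the other 3 heavy chains that pair with B2M, 5 loading chaperones and trimming enzymes, 5 proteasome genes and 13 interferon gamma signalling genes did not pass. IFNG itself was at -1.93 ± 0.63 (adjusted p = 0.0502, edgeR), with 0 to 6 counts in M1 libraries and 5 to 26 in the others. T cell markers fell for 4 of 7 genes (CD8B, CD5, CD3E and CD3D), CD2, CD8A and CD4 did not pass (-1.06, -0.87 and -0.66), and fibroblast markers rose for 3 of 4. Without multidose 5 the counts of called genes were 3 of 10 for the interferon gamma induced list, 4 of 7 for T cells and 3 of 4 for fibroblasts, beside 9.13% of all genes. Summed T cell markers were 7.67 to 15 CPM in M1 libraries and 12.7 to 37.7 CPM in the others, and summed fibroblast markers 3635 to 6646 against 2218 to 5116 CPM. PTPRC was at -0.003 ± 0.21. The part of these cells, and of depth, in the class I values was not tested.

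Across animals the 8 genes ran in parallel, with PSMB8 and PSMB9 the closest of the 28 pairs by Pearson's correlation and TAP1 and NLRC5 by Spearman's. Over the 17 libraries all 28 pairs had a positive Pearson correlation of log2 CPM, from 0.51 (B2M with TAPBP) to 0.98 (PSMB8 with PSMB9), and all 28 passed a permutation test after adjustment over the 28. By Spearman's rank correlation 17 of 28 passed. The neighbours TAP1 and PSMB9 had r = 0.93 (rho = 0.71), and TAP1 and TAP2 r = 0.87 (rho = 0.70). The M8 and M9 libraries alone gave 28 pairs by Pearson and 18 by Spearman (n = 12).

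A large share of this rested on multidose 5. Without it 17 of 28 pairs passed by Pearson and 11 by Spearman (n = 16), and in the M8 and M9 libraries without it 18 and 2 (n = 11). Without the 2 libraries farthest from the median of the first gene of each pair, 6 and 2 passed (n = 15). PSMB8 with PSMB9 held at r = 0.91 (rho = 0.86), and TAP1 with TAPBP at r = 0.84 (rho = 0.68), without multidose 5. B2M then had r = 0.20 with TAP1 and -0.12 with TAPBP, and PSMB10 had r = -0.17 with TAPBP.

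The transactivator NLRC5 ran closest to TAP1. Over 17 libraries their r was 0.91 (rho = 0.93), without multidose 5 it was 0.89 (rho = 0.92), and in the 11 M8 and M9 libraries without multidose 5 it was 0.91 (rho = 0.89), with adjusted permutation p = 0.00112 for r and 0.0165 for rho in the last. Without multidose 5 the r of NLRC5 was 0.77 with TAP2, 0.76 with PSMB9, 0.73 with PSMB8 and 0.70 with TAPBP, each with an adjusted permutation p under the threshold of 0.05. It was 0.39 with PSMB10 and 0.29 with B2M, which did not pass. For PSMB10 it was 0.79 and passed where the 2 libraries farthest from the median of PSMB10 were left out.

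**Figure D4:**
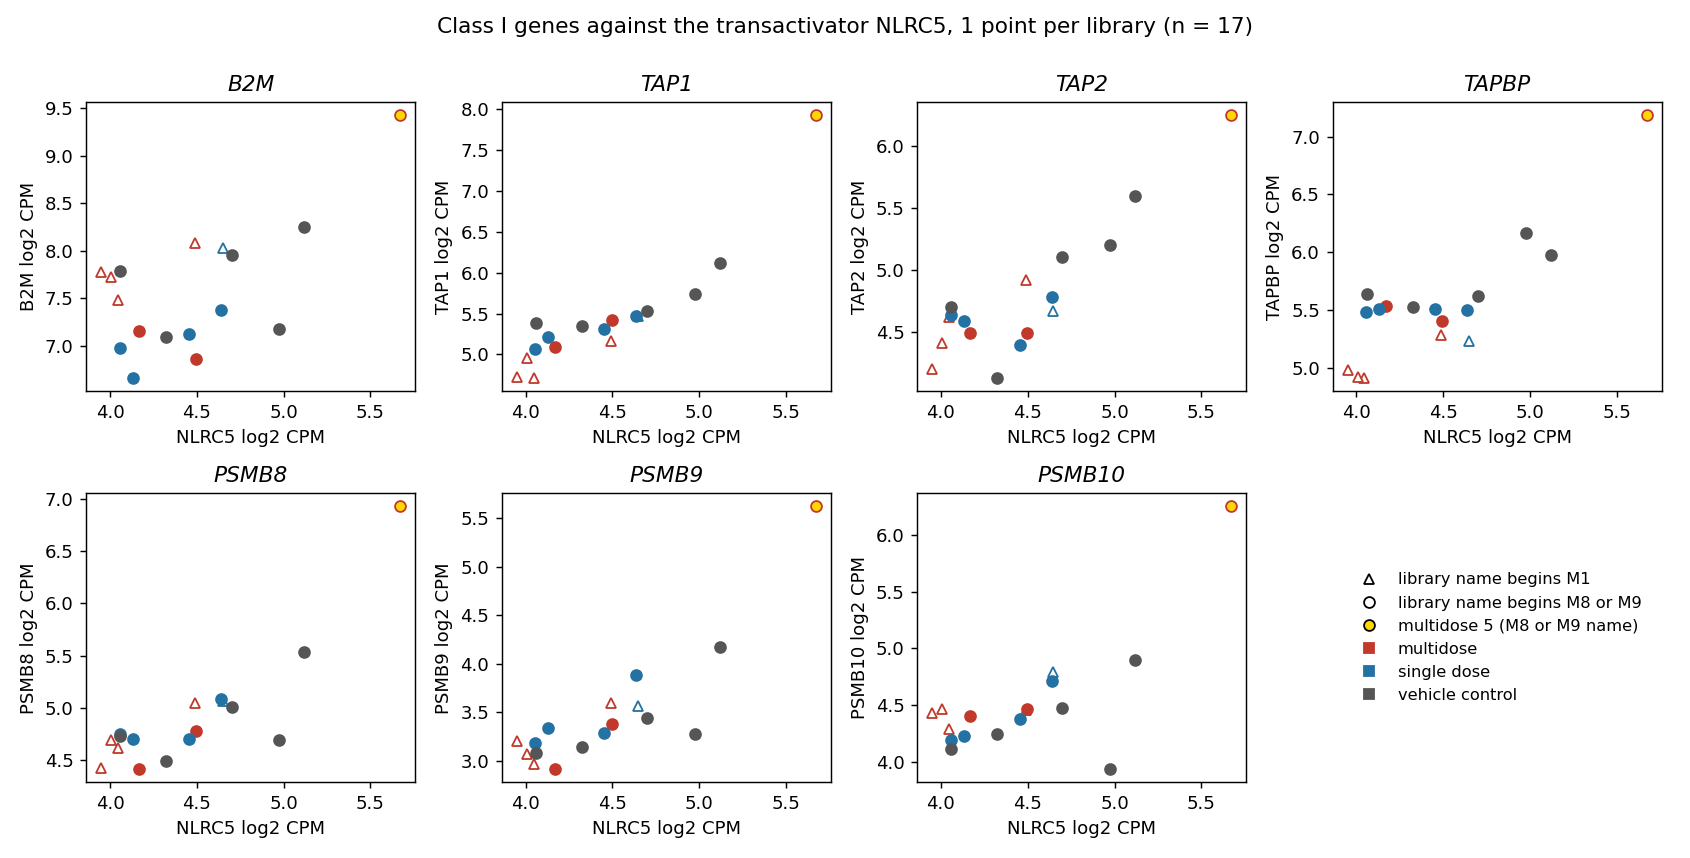
Level of 7 class I genes (y axes) against NLRC5 (x axes), both in log2 CPM, 1 point per library, with colours for the groups and triangles for M1 libraries. TAP1 follows NLRC5 along the whole range (r = 0.91, 0.89 without multidose 5), whereas B2M and PSMB10 follow it less closely once multidose 5 (yellow) is set aside. For PSMB10 this depended on which libraries were left out.

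The exchange of proteasome subunits was read from the ratio of PSMB10 counts to those of PSMB7, the constitutive subunit that it replaces. This ratio is within a library and does not depend on library scaling. It was 24.9%, 26.5%, 22.0%, 22.1% and 19.1% in single dose 1 to 5 and 38.4%, 20.3%, 22.0%, 18.2% and 23.9% in vehicle control 1 to 5. In the multidose group it ran from 19.3% over a median of 20.95% to 80.6%, the last in multidose 5, while the other 6 libraries reached at most 23.0%. Multidose 5 and vehicle control 1 stood above all other libraries, the next being single dose 2.

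The groups did not differ in this ratio beyond the spread between libraries. On the log2 scale the difference was 0.09 for multidose against vehicle control (p = 0.881, exact two-sided permutation test), -0.05 for single dose against vehicle control (p = 0.857, exact) and 0.15 for multidose against single dose (p = 0.947, exact), with an adjusted p of 0.947 for each over these 3 exact tests. Without multidose 5 the first and last became -0.18 and -0.13 (exact permutation p = 0.372 and 0.177). Between M1 and M8 or M9 libraries, regrouped within dosing groups, the difference was -0.50 (exact permutation p = 0.114), and -0.06 without multidose 5 (exact permutation p = 0.547). Among multidose libraries only it was -0.80 (exact permutation p = 0.0286, the smallest that 4 against 3 libraries allow). There the M1 libraries were at 19.3% to 20.95%, multidose 7 at 22.5%, multidose 6 at 23.0% and multidose 5 at 80.6%. The size of this difference thus rested largely on multidose 5. Leaving out single dose 1 gives the same -0.80.

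PSMB5 and PSMB6, which PSMB8 and PSMB9 replace, were not analysed here, so the sum of 11 subunits common to both forms (PSMA1 to PSMA7 and PSMB1 to PSMB4, chosen after the values were seen) served as denominator. PSMB8 was 1.88% to 5.37% of that sum in the 16 libraries other than multidose 5 and 8.65% in multidose 5. PSMB9 was 0.72% to 2.08% in the 16 and 3.50% in multidose 5, and PSMB10 1.7% to 3.46% and 5.41%. Multidose 5 was the highest and vehicle control 1 the next highest for all 3 subunits. None of the 9 differences between dosing groups passed the exact permutation test (smallest p = 0.548, adjusted p = 0.99 over 9).

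**Figure D5:**
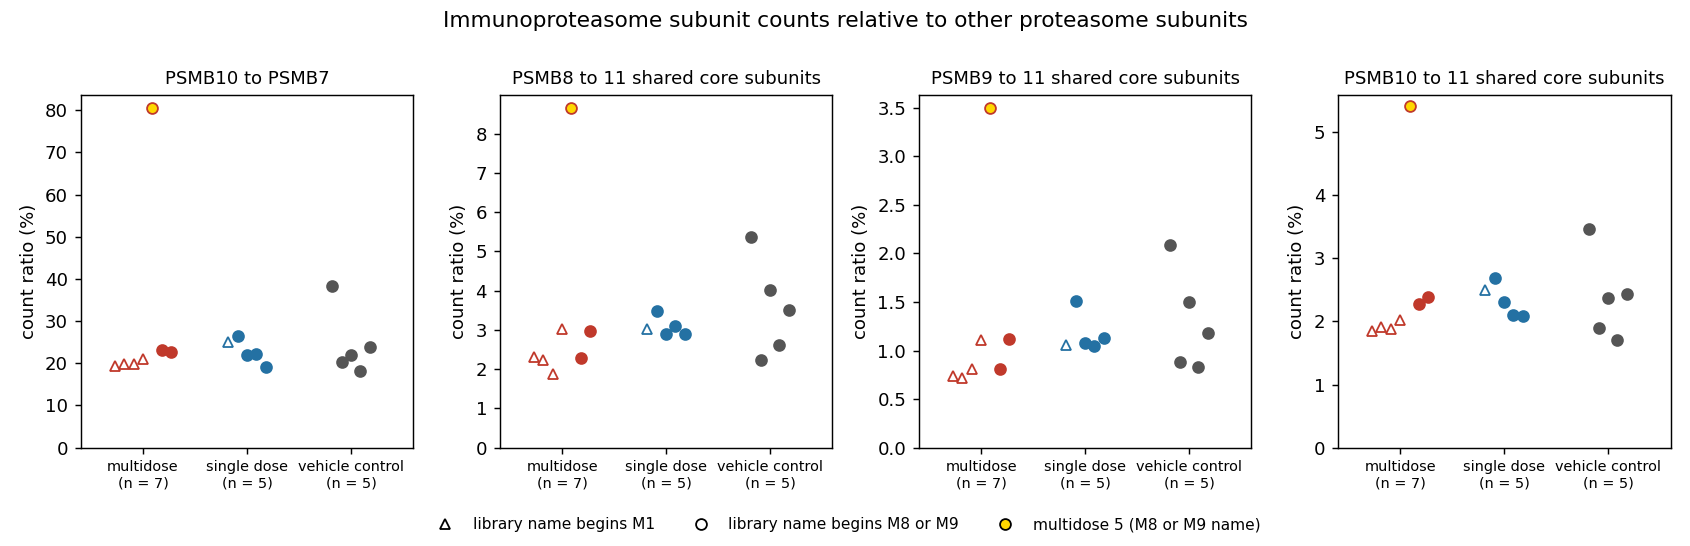
Counts of PSMB10 as a percentage of PSMB7, and of PSMB8, PSMB9 and PSMB10 as a percentage of the sum of 11 shared core subunits (y axes), in each library by group; triangles are M1 libraries. Multidose 5 (yellow) is the highest in each panel, at 80.6%, 8.65%, 3.50% and 5.41%, and vehicle control 1 is next.

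The genes whose log2 CPM over the 17 libraries was most like that of a class I gene were found by Pearson's r among genes with a mean of at least 1 CPM, outside the 8. For TAP1 they were LGALS3BP (r = 0.97), IRF9 (0.97) and IRF7 (0.96), for B2M SP110 (0.91), IFIT5 (0.89) and SP140 (0.87), and for TAP2 STAT2 (0.88), CSF1 (0.88) and LGALS3BP (0.87). For PSMB8 they were PARP12, LGALS3BP and UBA7 (each 0.93), for PSMB9 GBP2 (0.91), LGALS3BP (0.91) and CD74 (0.90), and for PSMB10 FCGR1A, PARP12 and USP18 (each 0.93). For TAPBP they were TAPBPL (0.95), LRP10 (0.93) and MFSD12 (0.93), and for NLRC5 CD74, ADAR (each 0.91) and PML (0.90). Without multidose 5 the r of these 24 pairs fell to between 0.58 (PSMB9 with LGALS3BP) and 0.89 (TAPBP with LRP10). IRF7, IRF9 and STAT2 are transcription factors of the interferon response, and CD74 is the invariant chain of MHC class II.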

How the data were processed

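The authors deposited 1 table of raw counts per gene for 17 libraries, whole numbers that were used as deposited. Per the submitters' processing notes, the tools were HISAT2 2.1.0, Subread 1.6.2, SAMtools 1.7, Trimmomatic 0.33 and FastQC 0.11.7, on build Sscrofa11.1. No source used here states strandedness or annotation release, so reads of overlapping genes may be mixed. RNA was isolated with TRIzol and sequenced on an Illumina NextSeq, per the labels' protocols. Replicates are individual animals, per the series' design text, and the smallest chi-square per degree of freedom between any 2 libraries was 21.6, so none was a duplicate.

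The tests used edgeR 4.0.16 under R 4.3.3 (filterByExpr, TMM scaling, quasi-likelihood fit with robust spread, 1 coefficient per group, all 17 libraries, Benjamini-Hochberg adjustment over 15884 genes, threshold 0.05). The M1 comparison added a term for the library name. SE values derive from the fold change and F statistic. Log2 CPM carries a prior count of 2. DESeq2 1.42.0 and limma 3.58.1 served as alternatives. Ratios had 0.5 added to each count and were compared by exact two-sided permutation tests. Correlations used 1e+05 permutations. PSMB5 and PSMB6 were not analysed here, so the planned ratios to them were replaced by the shared core sum. Pipeline steps were tested on simulated data.

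The 8 genes and the lists were chosen with earlier results of these data known. Named genes are the 8, of each list those called (at most 4 by smallest p) or, with none called, those with the smallest p, PSMB7 and IRF1 in any case, and the 3 most alike per gene. List genes named with their level in multidose 5 or vehicle control 1 were chosen after their values were seen. An item withheld from this work is not reported here.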

Additional observations from a re-analysis of the deposited data

Results flagged for a closer look

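Within each dosing group the highest and lowest library were compared with the rest by Dixon's ratio at the 95% level, for the 8 genes and the PSMB10 to PSMB7 ratio. Of 27 groups examined 9 stood out, where chance gives about 1 in 20. In 8 of the 9 the library was multidose 5, the highest of its group, at 7.93 log2 CPM for TAP1, 6.25 for TAP2, 7.18 for TAPBP, 6.93 for PSMB8, 5.62 for PSMB9, 6.25 for PSMB10 and 5.67 for NLRC5, and at -0.31 for the log2 ratio of PSMB10 to PSMB7. The values share 1 library and are not independent of each other. B2M, at 9.42 log2 CPM in multidose 5, did not pass this criterion. The remaining library was single dose 1, the lowest of its group for TAPBP at 5.23 log2 CPM and the only M1 library of that group.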

How the results depend on the processing

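All values are log2 unless named as counts, and no dosing comparison called any of the 8 genes under any alternative. RLE scaling, a minimum of 1 CPM in 5 libraries and no robust spread kept all 36 results on their side, as did a fit of only the 2 groups (27 results), dropping the group term (9) and a pseudocount of 5 (4). Upper-quartile scaling turned PSMB9 in single dose against vehicle control to 0.0147. Over all alternatives 1029 values kept direction and call, 93 changed direction, 9 gained and 20 lost a call.

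In multidose against vehicle control, DESeq2 gave TAP1 -0.57, PSMB8 -0.24 and PSMB9 -0.25, and limma-voom -0.46, -0.10 and -0.082 for the same genes. DESeq2 had replaced the multidose 5 count of these 3 genes, and limma-voom gave multidose 5 the lowest weight of the 17 libraries (0.339). M8 and M9 libraries alone gave TAP2 0.29, TAPBP 0.46 and NLRC5 0.23. The M1 name as a covariate gave 0.16, 0.30 and 0.041 for these, and without multidose 5 as well it gave B2M -0.75, TAP1 -0.52, PSMB8 -0.36, PSMB9 -0.32 and PSMB10 -0.041. M8 and M9 libraries without multidose 5 gave B2M -0.71, TAP1 -0.39, PSMB8 -0.33 and PSMB9 -0.32. A term for the suffix of the library name gave B2M -0.024 and TAP1 -0.031.

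In multidose against single dose, DESeq2 gave TAP1 -0.23, PSMB8 -0.17 and PSMB9 -0.24, and limma-voom TAP1 -0.21, TAP2 -0.016, TAPBP -0.28, PSMB8 -0.081, PSMB9 -0.12 and NLRC5 -0.16. M8 and M9 libraries without multidose 5 gave B2M -0.042, TAP1 -0.0012, TAP2 -0.11, TAPBP -0.029, PSMB8 -0.21 and PSMB9 -0.28. The M1 covariate without multidose 5 gave B2M -0.12, TAP1 -0.22, TAP2 -0.11, TAPBP -0.089, PSMB8 -0.26, PSMB9 -0.30, PSMB10 -0.12 and NLRC5 -0.19. In single dose against vehicle control, limma-voom gave PSMB9 0.041, and the M1 covariate PSMB8 0.10 and PSMB9 0.18.

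Between M1 and M8 or M9 libraries, the 1 gene called became 0 without the low-count filter (6.93% of all genes called), in dosed libraries only (18%) and in multidose libraries only (4.72%). It became 2 with the suffix term (17.2% of all genes called) and with limma-voom (28.5%). With limma-voom PSMB8 was 0.027 and PSMB10 0.051. B2M was -0.23 with the suffix term and -0.50 in multidose libraries only, where the PSMB10 to PSMB7 ratio was -0.80 (exact permutation p = 0.0286, 35 regroupings). PSMB10 was 0.11 without group term and multidose 5. With the shared core as denominator the ratio in single dose against vehicle control was 0.018. Of the 28 correlations, 17 passed without multidose 5, 18 in M8 and M9 libraries without it and 6 without the 2 farthest libraries. Beyond the values named above for DESeq2 and limma-voom, the cause was not tested.

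The replicate numbers did not pair the samples: of 15 pairs 4 had a correlation of deviations over 0.1, and 1 of 15 libraries correlated best with its own number. With the replicate block, multidose against vehicle control gave TAP1 -0.030, single dose against vehicle control PSMB9 0.030, and M1 against M8 or M9 names 0 of the 8 genes called and B2M -0.49, with 11 genes called in all.

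Leaving out 1 library at a time gave, in multidose against vehicle control, -0.14 to 0.47 for B2M, -0.61 to 0.45 for TAP1, -0.48 to 0.092 for TAP2, -0.25 to 0.55 for PSMB8 and -0.27 to 0.65 for PSMB9, each lowest without multidose 5. In multidose against single dose it gave -0.28 to 0.79 for TAP1, -0.075 to 0.42 for TAP2, -0.25 to 0.35 for TAPBP, -0.19 to 0.54 for PSMB8, -0.26 to 0.56 for PSMB9, -0.058 to 0.48 for PSMB10 and -0.19 to 0.20 for NLRC5. In single dose against vehicle control it gave -0.17 to 0.12 for PSMB8 and -0.13 to 0.22 for PSMB9, both highest without vehicle control 1. By library name 0 to 2 of the 8 genes were called, beside 5.33% (without single dose 1) to 17.1% (without vehicle control 3) of all genes. The estimates ran from -0.50 to 0.85 for B2M, -0.76 to 0.071 for TAP2, -1.10 to 0.16 for PSMB8, -1.24 to 0.089 for PSMB9 and -0.89 to 0.14 for PSMB10. The PSMB10 to PSMB7 ratio ran from -0.18 to 0.27, -0.15 to 0.12, -0.13 to 0.21 and -0.80 to -0.061 in the 4 comparisons in the order of the report. Depth limits genes such as IFNG, with 0 to 26 counts per library, whereas each of the 8 genes had at least 183.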
